A study of Mus musculus with 3 samples.

Results

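The monocyte-attracting CC chemokines Ccl2, Ccl7, Ccl8, Ccl12, Ccl3, Ccl4, Ccl6 and Ccl9 and the receptor Ccr2 were read in left-ventricular cells of C56Bl6 mice. They were taken by symbol and are 9 of the 30360 genes measured. Single-cell RNA was captured from 3' ends in droplets in 3 libraries, 1 for each group, and each library came from 4 pooled samples. The HFpEF-FoxO1-sh mice were on the High-Fat + L-NAME diet during 6 weeks and carried AAV-FoxO1-sh during 4 weeks. The HFpEF-scr mice had the same diet during 6 weeks and AAV-scramble-sh during 4 weeks. The Control mice ate a standard diet for 10 weeks, and their label names no vector. L-NAME inhibits nitric oxide synthases, and together with a fatty diet it gives a mouse model of HFpEF, heart failure in which the ejection fraction is preserved. AAV is adeno-associated virus, here carrying a short hairpin against FoxO1 or a scrambled one. A strainer had removed most cardiomyocytes and red cells had been lysed, so the cells are those that remain after both steps.

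CC chemokines are small secreted proteins that bind glycosaminoglycans on matrix and cell surfaces and attract leukocytes through G protein-coupled receptors. Ccr2 is the receptor of classical monocytes, which need it to leave the bone marrow and to enter inflamed tissue. Ccl2 is its best known ligand, Ccl7 and the mouse chemokine Ccl12 bind it as well, and Ccl8 belongs to the same family, although the mouse protein is known mainly as an agonist of Ccr8. Ccl3 and Ccl4 are known as macrophage inflammatory proteins, and Ccl3 binds Ccr1. Ccl6 and Ccl9 are found in rodents and act on Ccr1. In the heart, resident macrophages seeded before birth mostly lack Ccr2, while macrophages derived from blood monocytes carry it, and both fibroblasts and macrophages are known sources of Ccl2.

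The libraries held 27453 barcodes in HFpEF-FoxO1-sh, 36179 in HFpEF-scr and 33022 in Control. After filters on depth, genes and mitochondrial share and the removal of marked doublets, 16854, 14567 and 12757 cells were kept in that order, with 118407618, 103415472 and 96154556 unique molecular identifiers (UMIs, counts of captured molecules). The HFpEF-FoxO1-sh library stood apart in mitochondrial share: the median over kept cells was 9.32% there, 12.6% in HFpEF-scr and 12.9% in Control. Between 37 and 61 kept barcodes were shared by a pair of libraries, and leaving them out moved no log2 ratio by more than 0.027 among the 24 recomputed, those of Ccl2, Ccl7 and Ccl8 in fibroblasts and of all 9 genes in macrophages. Foxo1, the gene the hairpin targets, was at 59.7 CPM (UMIs of a gene per 1000000 UMIs) in the HFpEF-FoxO1-sh library, 56.2 in HFpEF-scr and 61.1 in Control. Over all kept cells it was therefore higher in the library labelled HFpEF-FoxO1-sh than in HFpEF-scr and just below Control. The classes differed in direction. In fibroblasts, the largest class, Foxo1 was at 64.1 CPM (62.4 to 66.0) in HFpEF-FoxO1-sh, higher than in HFpEF-scr. The fibroblast level was 59.2 CPM (57.3 to 61.1) in HFpEF-scr and 64.1 (62.1 to 66.2) in Control. In endothelial cells it was lower than in HFpEF-scr, at 62.4 CPM (55.8 to 69.6) in HFpEF-FoxO1-sh, 79.7 (73.3 to 86.5) in HFpEF-scr and 64.4 (57.7 to 71.6) in Control. With 1 library per group no difference below has a replicate check, every comparison is between libraries, and none was tested. The intervals are 95% and cover counting error only, since UMIs of 1 cell come together and since cells of 4 pooled samples cannot be told apart.

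Cells were clustered without the 9 genes among the variable genes, and clusters were named from marker genes. The names mean cells that are like a class by its markers, such as fibroblast-like, macrophage-like or monocyte-like, and the suffix is left out from here on. Fibroblasts numbered 10439 in HFpEF-FoxO1-sh, 9124 in HFpEF-scr and 8311 in Control, which was 61.9%, 62.6% and 65.1% of kept cells. Macrophages numbered 1970, 1477 and 1078, monocytes 102, 322 and 117, and dendritic cells 185, 208 and 163, in the same order. The summed fibroblast markers were at 50370 CPM in HFpEF-FoxO1-sh fibroblasts, 50899 in HFpEF-scr and 50510 in Control, and all 12 markers were detected in each. The summed macrophage markers were at 24729 CPM in HFpEF-FoxO1-sh macrophages, 22166 in HFpEF-scr and 23573 in Control, also with all 12 detected.

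The 8 chemokine genes lie on chromosome 11 in 2 groups, by the GENCODE vM21 annotation on GRCm38 (mm10). Ccl2 (chr11:82035571-82037453), Ccl7 (chr11:82045712-82047525), Ccl12 (chr11:82101845-82103400) and Ccl8 (chr11:82115185-82116799) run along the plus strand within 81229 bases. Only 8258 bases separate Ccl2 from Ccl7, and 11784 separate Ccl12 from Ccl8. Ccl9 (chr11:83572919-83578636), Ccl6 (chr11:83587882-83593087) and Ccl3 (chr11:83647844-83649355) on the minus strand and Ccl4 (chr11:83662584-83664683) on the plus strand lie within another 91765 bases. Ccl9 and Ccl6 are 9245 bases apart, and Ccl3 and Ccl4 are 13228 bases apart. Ccr2 lies on chromosome 9 (chr9:124101950-124113557, plus strand). Ccl2 overlaps an annotated antisense gene, Gm17268, which had 0 UMIs in every library, so its reads were not divided between these. Ccl6 overlaps E230016K23Rik, a gene not analysed here.

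RefSeq promoter sequence on GRCm38.p6 was at hand for Ccl8, Ccl12, Ccl3, Ccl6, Ccl9 and Ccr2, 6 of the 9 genes. The 250 bases before the start site are shown for 2 pairs, Ccl8 and Ccl12, which were both lower in HFpEF-FoxO1-sh than in HFpEF-scr macrophages, and Ccl6 and Ccl9, neighbours that both had Clec4a2 and Ptpro among the 3 genes nearest in pattern across classes. Each is written along its gene's strand and ends at the base before the start site. Capitals mark matches, on either strand, to TATAAA (the TATA box), GAGGAA (read by PU.1), TGANTCA (read by AP-1) and an NF-kB motif (GGG and TTTCC with any 2 bases between them). The Ccl8 window is chr11:82114935-82115184 (plus strand), that of Ccl12 is chr11:82101595-82101844 (plus strand), that of Ccl6 is chr11:83593088-83593337 (minus strand) and that of Ccl9 is chr11:83578637-83578886 (minus strand).
Ccl8: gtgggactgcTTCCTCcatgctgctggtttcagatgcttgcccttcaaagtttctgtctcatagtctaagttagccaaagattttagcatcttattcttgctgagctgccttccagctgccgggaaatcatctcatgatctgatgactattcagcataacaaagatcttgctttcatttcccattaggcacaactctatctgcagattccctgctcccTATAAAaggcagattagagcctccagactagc
Ccl12: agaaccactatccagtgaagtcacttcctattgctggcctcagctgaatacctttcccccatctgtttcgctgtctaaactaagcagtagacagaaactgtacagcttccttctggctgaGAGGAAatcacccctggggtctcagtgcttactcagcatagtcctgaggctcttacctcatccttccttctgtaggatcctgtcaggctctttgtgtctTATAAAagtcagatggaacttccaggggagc
Ccl6: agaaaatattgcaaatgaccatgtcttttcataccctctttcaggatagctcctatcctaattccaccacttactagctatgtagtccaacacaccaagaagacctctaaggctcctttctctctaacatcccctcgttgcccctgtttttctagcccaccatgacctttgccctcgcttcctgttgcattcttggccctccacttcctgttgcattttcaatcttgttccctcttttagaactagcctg
Ccl9: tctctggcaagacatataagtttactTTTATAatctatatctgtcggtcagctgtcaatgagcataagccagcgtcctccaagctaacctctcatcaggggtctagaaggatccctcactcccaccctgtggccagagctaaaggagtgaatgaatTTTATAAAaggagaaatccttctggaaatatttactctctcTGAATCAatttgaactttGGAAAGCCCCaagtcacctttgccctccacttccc

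The Ccl8 and Ccl12 windows both held TATAAA close to the start, from base 32 to 27 before it in Ccl8 and from base 31 to 26 in Ccl12. They also both held GAGGAA, on the other strand from base 240 to 235 in Ccl8 and on the gene's strand from base 130 to 125 in Ccl12. The Ccl6 and Ccl9 windows shared no match: Ccl6 held none of the 4 motifs, while Ccl9 held TATAAA on both strands, TGANTCA and the NF-kB motif. Of 32851 promoter windows of 250 bases, 12.4% held TATAAA, 23.3% GAGGAA, 6.75% TGANTCA and 1.41% the NF-kB motif on either strand. GTAAACA, letters read by forkhead factors such as FoxO1, was in 3.17% of the windows and in none of these 6. A match is a run of letters and not a measured site, and its absence says nothing of a factor.

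Ccr2 was high in dendritic cells, monocytes, NK cells and macrophages, and low in the stromal classes. Ccr2 was highest in dendritic cells, at 803 CPM in HFpEF-FoxO1-sh, 746 in HFpEF-scr and 863 in Control. Monocytes came next, at 628, 647 and 710 CPM in that order, and their range did not overlap that of dendritic cells. NK cells held 344 CPM in HFpEF-FoxO1-sh, 268 in HFpEF-scr and 345 in Control, and macrophages held 216, 284 and 177 CPM. The ranges of NK cells and macrophages over the libraries overlapped. In the same library order, the cluster named dendritic carried macrophage markers summed to 3111, 2372 and 2054 CPM. Its dendritic markers summed to 1009, 948 and 1039 CPM. When classed singly, 49.2%, 51.9% and 55.2% of its cells kept that name. The cluster named NK also carried T cell markers, summed to 2371, 2210 and 2041 CPM beside 4202, 3214 and 4229 CPM of NK markers, and only 33.1%, 36.4% and 35.2% of its cells kept that name when classed singly. With a mitochondrial limit of 10%, with at least 1000 UMIs per barcode or with the members among the variable genes, no cluster was named NK and the Ccl5/Gzma cluster was named T cell, so NK and T cells are not set against each other here. Macrophages, which outnumbered the other classes named here apart from fibroblasts, nonetheless held 52.2% of all Ccr2 UMIs in HFpEF-FoxO1-sh, 39.8% in HFpEF-scr and 33.8% in Control. NK cells were above macrophages in HFpEF-FoxO1-sh and Control and just below them in HFpEF-scr, as the plot of levels by class shows.

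**Figure D1:**
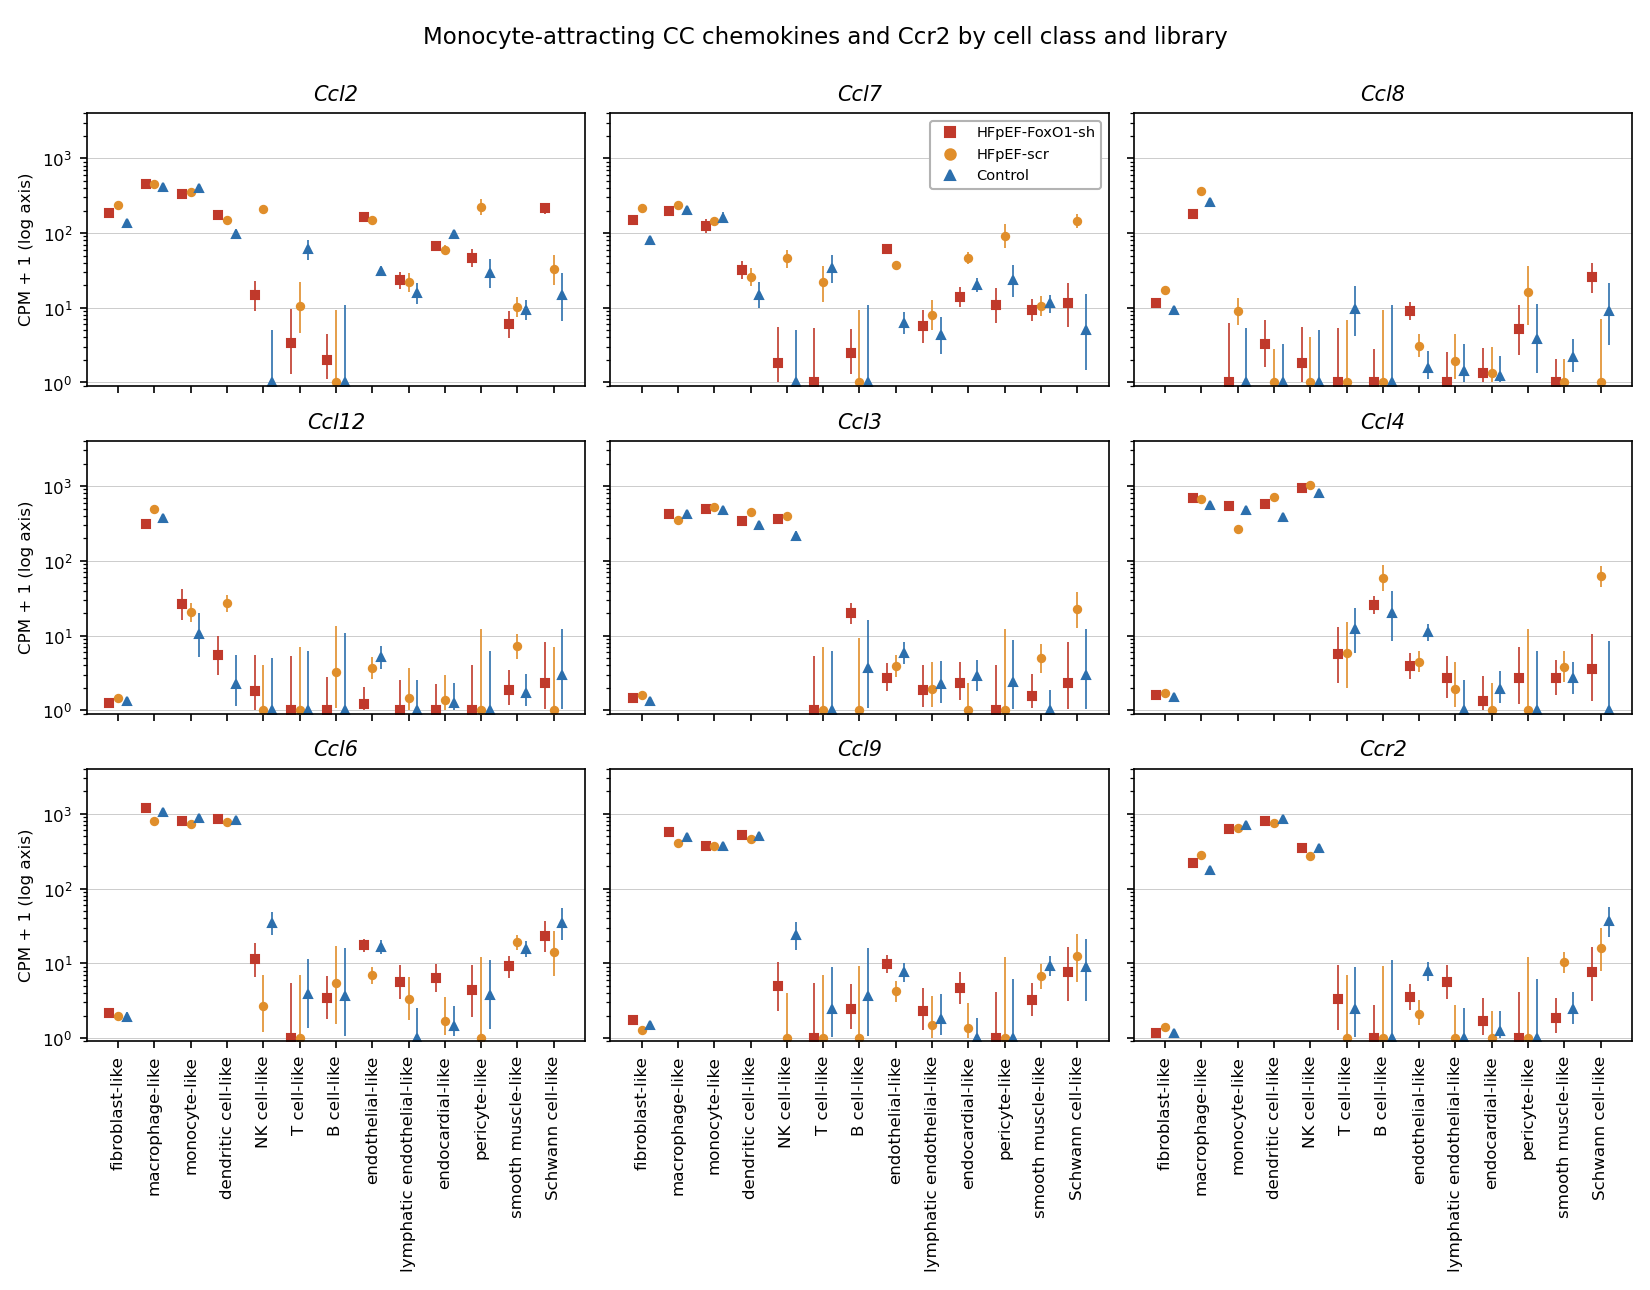
Each panel gives 1 gene, with its summed level per cell class and library as CPM plus 1 on a log axis and bars for the exact Poisson 95% counting interval; squares are HFpEF-FoxO1-sh, circles HFpEF-scr and triangles Control. Ccl6, Ccl9, Ccl3, Ccl4 and Ccr2 sit high in macrophages, monocytes and dendritic cells and near the floor in fibroblasts, Ccl12 is high in macrophages, and Ccl2 and Ccl7 are high in fibroblasts, macrophages and monocytes, with Ccl7 lower in dendritic cells.

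Of the Ccr1 ligands, Ccl6 and Ccl9 were myeloid. Ccl6 was at 1203 CPM in HFpEF-FoxO1-sh macrophages, 799 in HFpEF-scr and 1053 in Control, with at least 720 CPM in monocytes and 769 in dendritic cells of every library. Ccl9 ran at 562, 412 and 482 CPM in macrophages of the same libraries. Fibroblasts held about 1 CPM of Ccl6, with 87 UMIs in HFpEF-FoxO1-sh, 59 in HFpEF-scr and 55 in Control. Neutrophils, too few in Control to be compared at 43 cells, had Ccl6 at 2161 CPM in HFpEF-FoxO1-sh, 823 in HFpEF-scr and 1516 in Control, and held Ccl9 at 40.5 CPM or less.

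Ccl3 and Ccl4 were also found in the cluster named NK. Ccl4 was at 955 CPM in HFpEF-FoxO1-sh NK cells, 1047 in HFpEF-scr and 801 in Control, and at 700, 661 and 557 CPM in macrophages. Ccl3 was at 356, 391 and 215 CPM in NK cells and at 427, 349 and 417 CPM in macrophages of the same libraries. In the cluster named T cell Ccl3 had 0 UMIs in every library at median depths of 4129, 4392 and 4896 UMIs, which bears on detection and not on expression. Ccl12 was almost confined to macrophages, which held 95.05% of its UMIs in HFpEF-FoxO1-sh, 84.2% in HFpEF-scr and 93.0% in Control. Ccl8 was shared between macrophages, with 70.7%, 71.7% and 77.1% of its UMIs, and fibroblasts, with 24.7%, 21.6% and 19.7%.

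Ccl2 and Ccl7 came mostly from fibroblasts by number of molecules. Fibroblasts held 60.8% of Ccl2 UMIs in HFpEF-FoxO1-sh, 60.9% in HFpEF-scr and 60.3% in Control, and 71.8%, 74.2% and 65.7% of Ccl7 UMIs. As CPM, however, Ccl2 was higher in macrophages, at 452 CPM in HFpEF-FoxO1-sh, 454 in HFpEF-scr and 407 in Control, than in fibroblasts, at 184, 239 and 134 CPM. Clusters named platelet and erythroid are left out of the plot of levels by class, because they carried the fibroblast markers at 33143 to 50468 CPM.

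Over all kept cells, 6 of the 9 genes were higher in HFpEF-scr than in Control past the ratio rule used throughout: a CPM ratio of at least 1.5 either way, an interval that leaves out 1, and at least 20 UMIs over both libraries. Of all genes measured, 2.49% were higher by that rule and 3.22% lower. The 6 were Ccl7, at 176 CPM in HFpEF-scr and 75.2 in Control, Ccl2, at 235 and 137, Ccl8, at 45.7 and 26.7, Ccl12, at 53.1 and 32.0, Ccr2, at 65.0 and 41.5, and Ccl4, at 107 and 69.0. Ccl3, Ccl6 and Ccl9 stayed within the rule, with ratios of 1.34, 1.01 and 1.12. The median log2 ratio of the 9 was 0.65, against -0.02 over all genes measured. These sums mix classes: of the kept cells, monocytes made up 2.21% (HFpEF-scr) and 0.917% (Control), and macrophages 10.1% and 8.45%.

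Between HFpEF-FoxO1-sh and HFpEF-scr, 1 of the 9 passed the rule over all kept cells, and none was higher. Ccl8 was at 27.1 CPM in HFpEF-FoxO1-sh and 45.7 in HFpEF-scr, a ratio of 0.593 (0.567 to 0.621). Of all genes measured, 2.85% were lower by the rule and 2.77% higher. Ccr2 (45.1 and 65.0 CPM), Ccl12 (35.6 and 53.1), Ccl7 (132 and 176) and Ccl2 (192 and 235) were lower in HFpEF-FoxO1-sh by less than the rule asks, and Ccl6 (159.5 and 117 CPM) and Ccl9 (74.8 and 60.2) were higher by less. Both comparisons share the HFpEF-scr library, so they are not independent of each other.

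In fibroblasts Ccl7 had the largest ratio of HFpEF-scr to Control of the 9 genes. It was at 148 CPM in HFpEF-FoxO1-sh (146 to 151), 218 in HFpEF-scr (214 to 222) and 79.8 in Control (77.5 to 82.1), from 11186, 13500 and 4749 UMIs. HFpEF-scr was the highest library, and the intervals of the 3 did not overlap. The ratio of HFpEF-scr to Control was 2.73 (2.64 to 2.82), past the rule, and that of HFpEF-FoxO1-sh to HFpEF-scr was 0.681 (0.664 to 0.699), which just misses it. The ratio of HFpEF-FoxO1-sh to Control was 1.86 (1.80 to 1.93).

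Ccl2 had the same order in fibroblasts, at 184 CPM in HFpEF-FoxO1-sh, 239 in HFpEF-scr and 134 in Control. Its ratio of HFpEF-scr to Control was 1.79 (1.74 to 1.84), and that of HFpEF-FoxO1-sh to HFpEF-scr was 0.768 (0.750 to 0.786), within the rule. Ccl8 was at 10.5, 16.4 and 8.46 CPM in the same libraries. Its ratio was 1.94 (1.74 to 2.16) for HFpEF-scr over Control and 0.640 (0.582 to 0.703) for HFpEF-FoxO1-sh over HFpEF-scr, both past the rule.

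In all, 5 of 9 genes were higher in HFpEF-scr than in Control fibroblasts and none lower, where 1.69% of 14798 measured genes were higher and 1.85% lower. The other 2 of the 5, Ccl3 and Ccr2, rest on few molecules: Ccl3 had 37 UMIs in HFpEF-scr and 19 in Control, and Ccr2 had 25 and 9. Between HFpEF-FoxO1-sh and HFpEF-scr fibroblasts, Ccl8 and Ccr2 were lower and Ccl9 was higher, with 1.84% of measured genes lower and 1.67% higher. Ccl9 had 54 UMIs in HFpEF-FoxO1-sh fibroblasts and 18 in HFpEF-scr, and Ccr2 had 13 and 25. The summed macrophage markers in fibroblasts were at 167 CPM in HFpEF-FoxO1-sh, 159 in HFpEF-scr and 133 in Control, with none of the 12 at 0, and their part in these small values was not tested.

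**Figure D2:**
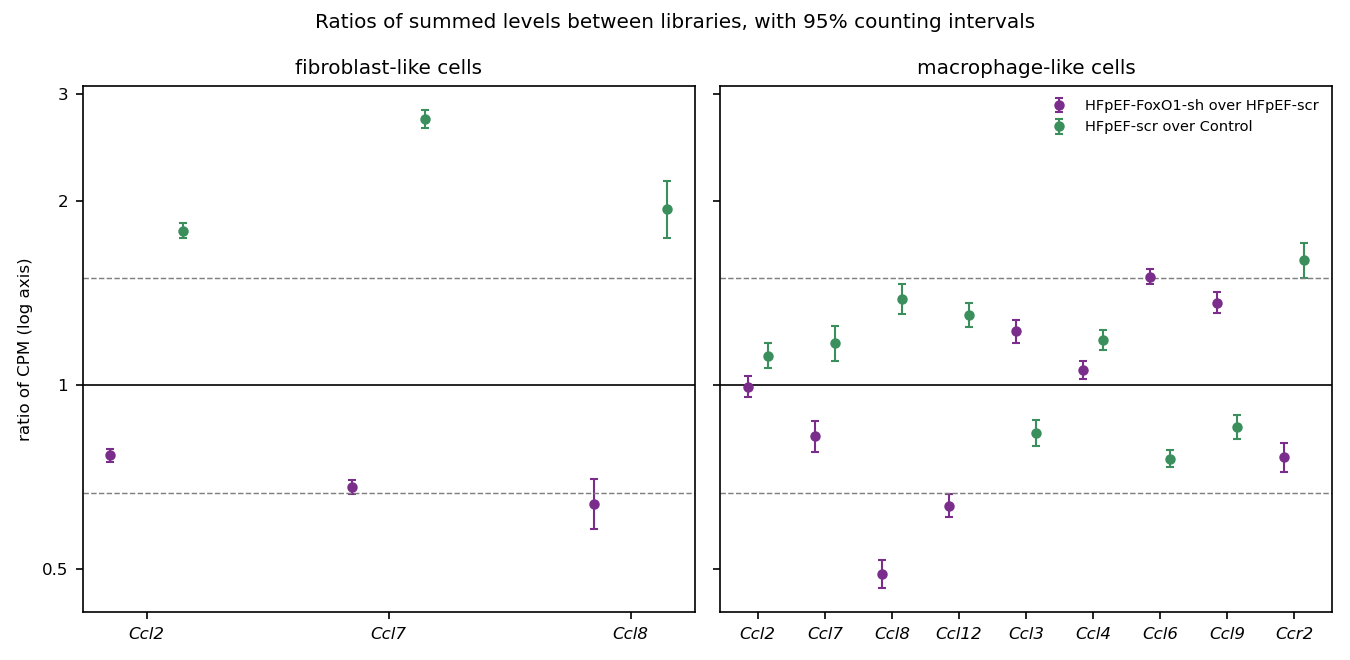
CPM ratios between libraries on a log axis, with exact conditional binomial 95% counting intervals, for the 3 genes with over 500 UMIs in every library's fibroblasts (left) and all 9 genes in macrophages (right); dashed lines mark ratios of 1.5 and its inverse. In fibroblasts all 3 genes lie above 1.5 for HFpEF-scr over Control and below 1 for HFpEF-FoxO1-sh over HFpEF-scr, while in macrophages Ccr2 alone lies above 1.5 for HFpEF-scr over Control.

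More fibroblasts carried these transcripts in HFpEF-scr. A Ccl7 UMI was seen in 17.7% of HFpEF-FoxO1-sh, 20.7% of HFpEF-scr and 11.1% of Control fibroblasts. A Ccl2 UMI was seen in 10.9%, 13% and 9.02%, and a Ccl8 UMI in 3.72%, 5.03% and 2.67%. With each cell thinned to 1000 UMIs, Ccl7 was seen in 7.23% of HFpEF-FoxO1-sh, 9.40% of HFpEF-scr and 4.18% of Control fibroblasts, and Ccl2 in 4.72%, 6.43% and 3.93%. Thinning kept 10423, 9100 and 8302 fibroblasts, and left out the shallower ones.

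B cells are given here for Ccl2 and Ccr2 only, and they did not lack all 9 genes. Between HFpEF-FoxO1-sh and HFpEF-scr B cells, 2 of the 9 had enough UMIs for the ratio rule, 1 higher and 1 lower. A Ccl2 UMI was seen in 0.285% of 702 HFpEF-FoxO1-sh B cells and in none of 122 HFpEF-scr and 98 Control B cells. For HFpEF-scr and Control, the exact binomial upper bounds on the share of cells with a detected UMI were 2.98% and 3.69%. Median depth of B cells was 2675, 3153.5 and 3177.5 UMIs, against 6864, 6504 and 6822 in fibroblasts. Ccr2 was seen in 0.115% of HFpEF-FoxO1-sh, 0.164% of HFpEF-scr and 0.0842% of Control fibroblasts, and in no B cell, and its fibroblast values rest on 13, 25 and 9 UMIs.

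Most Ccl2 molecules came from a small number of fibroblasts. Cells with at least 10 Ccl2 UMIs, a threshold chosen after the values were seen, made up 2.43% of HFpEF-FoxO1-sh fibroblasts (2.15 to 2.75%), 3.81% of HFpEF-scr (3.43 to 4.23%) and 2.02% of Control (1.73 to 2.35%). They held 82.7% of the fibroblasts' Ccl2 UMIs in HFpEF-FoxO1-sh, 84.2% in HFpEF-scr and 82.0% in Control. A single fibroblast carried as many as 449 Ccl2 UMIs in HFpEF-FoxO1-sh, 853 in HFpEF-scr and 627 in Control. The order of the libraries in the number of such cells was that of the summed level.

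Ccl7 was less concentrated. Fibroblasts with at least 10 Ccl7 UMIs were 2.83% of HFpEF-FoxO1-sh, 4.31% of HFpEF-scr and 1.58% of Control fibroblasts, and held 61.5%, 68.2% and 57.4% of the Ccl7 UMIs. The highest single cell had 191, 263 and 117 of them. Both genes were often in the same fibroblasts: Ccl7 was seen in 42.0% of Ccl2-positive HFpEF-FoxO1-sh fibroblasts, 50.3% in HFpEF-scr and 34.3% in Control, against 14.7%, 16.3% and 8.77% of Ccl2-negative ones. Median depth was 7349, 6890.5 and 7400 UMIs in the Ccl2-positive fibroblasts and 6812, 6430.5 and 6775 in the others.

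Fibroblasts with at least 10 Ccl2 UMIs differed from those with none in other transcripts. Ccl7 stood first by its lowest fold over the 3 libraries (on CPM + 1), 11.4, at 1159 CPM in these cells against 90.6 in fibroblasts with none in HFpEF-FoxO1-sh, 1507 against 131 in HFpEF-scr and 822 against 49.6 in Control. Cxcl10, an interferon-induced chemokine for T cells, was at 62.5 CPM in such HFpEF-FoxO1-sh cells, 76.6 in HFpEF-scr and 44.8 in Control, and at 5.44, 3.12 and 1.98 CPM in those without Ccl2. Tnc, a matrix glycoprotein of injured tissue, was at 128, 73.3 and 38.5 CPM against 3.55, 4.43 and 3.13.

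Further genes at least 3.0-fold higher in every library were Cxcl5, a neutrophil chemokine, Timp1, an inhibitor of metalloproteinases, the metallothionein Mt2, Il6, Saa3, an acute phase protein, Nfkb2 and Nfkbie, a subunit and an inhibitor of NF-kB, and Ecscr and Prr7. Timp1 was at 1533 CPM in these HFpEF-FoxO1-sh cells, 559 in HFpEF-scr and 446 in Control, and at 116, 99.5 and 108 CPM in fibroblasts without Ccl2. Median depth was 8074.5, 7148 and 7781.5 UMIs in the cells with at least 10, against 6812, 6430.5 and 6775 in those with none. These genes were picked by their fold from the whole table and describe these cells only.

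The fibroblasts formed 10 clusters, named here by their 2 leading genes, and Ccl7 was higher in HFpEF-scr than in Control in each of them, by 1.12 to 3.90-fold. The lowest of these ratios, in the Igfbp3/Mmp3 cluster, had an interval of 0.821 to 1.52, which holds 1. In the Inmt/Dpep1 cluster it was at 111 CPM in HFpEF-FoxO1-sh, 221 in HFpEF-scr and 56.8 in Control. In the Cxcl14/Hsd11b1 cluster it was at 115, 256 and 72.3 CPM. In the larger Pi16/Clec3b and Smoc2/Cxcl1 clusters it was at 242, 329.95 and 175 CPM and at 208, 332 and 124 CPM. The ratio of HFpEF-FoxO1-sh to HFpEF-scr for Ccl7 was below 1 in 9 of the 10, and was 1.74 in the Igfbp3/Mmp3 cluster, where the levels were 29.3 and 16.8 CPM. Among the 9, the Prg4/Wif1 ratio was 0.900 (0.550 to 1.46), an interval that holds 1.

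Ccl2 differed more from cluster to cluster. In the small Ifit3/Ifit1 cluster of interferon-induced genes it was at 326 CPM in HFpEF-FoxO1-sh, 1082 in HFpEF-scr and 264 in Control, from 72, 73 and 32 cells, which made that cluster the highest in HFpEF-scr but not in the other libraries. It was lowest in the Prg4/Wif1 cluster, at 26.3, 10.5 and 9.85 CPM. Its ratio of HFpEF-scr to Control ran over the 10 clusters between 1.06 (0.738 to 1.53) in Prg4/Wif1 and 4.23 in Pi16/Gfpt2, where it was at 191 CPM in HFpEF-scr and 45.2 in Control.

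In the Cilp/Mfap5 cluster, led by matrix genes, the HFpEF-FoxO1-sh level rested on few cells. Ccl2 was at 450.2 CPM there in HFpEF-FoxO1-sh, 308 in HFpEF-scr and 278 in Control, a ratio of HFpEF-FoxO1-sh to HFpEF-scr of 1.46, while Ccl7 in the same cells was at 105, 147 and 52.0 CPM, a ratio of 0.712. That cluster held 27.5% of the fibroblasts' Ccl2 UMIs in HFpEF-FoxO1-sh, 16.7% in HFpEF-scr and 23.3% in Control. Of its 3812 Ccl2 UMIs in HFpEF-FoxO1-sh, 1609 came from 73 cells at or under 5% mitochondrial UMIs, and without such cells, a step added after the data were seen, Ccl2 was at 289 CPM in HFpEF-FoxO1-sh, 307 in HFpEF-scr and 279.97 in Control, so the direction between the HFpEF libraries turned. Over the 10 clusters with all kept cells, Ccl2 was lower in HFpEF-FoxO1-sh than in HFpEF-scr in 8, the others being Cilp/Mfap5 and Prg4/Wif1.

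**Figure D3:**
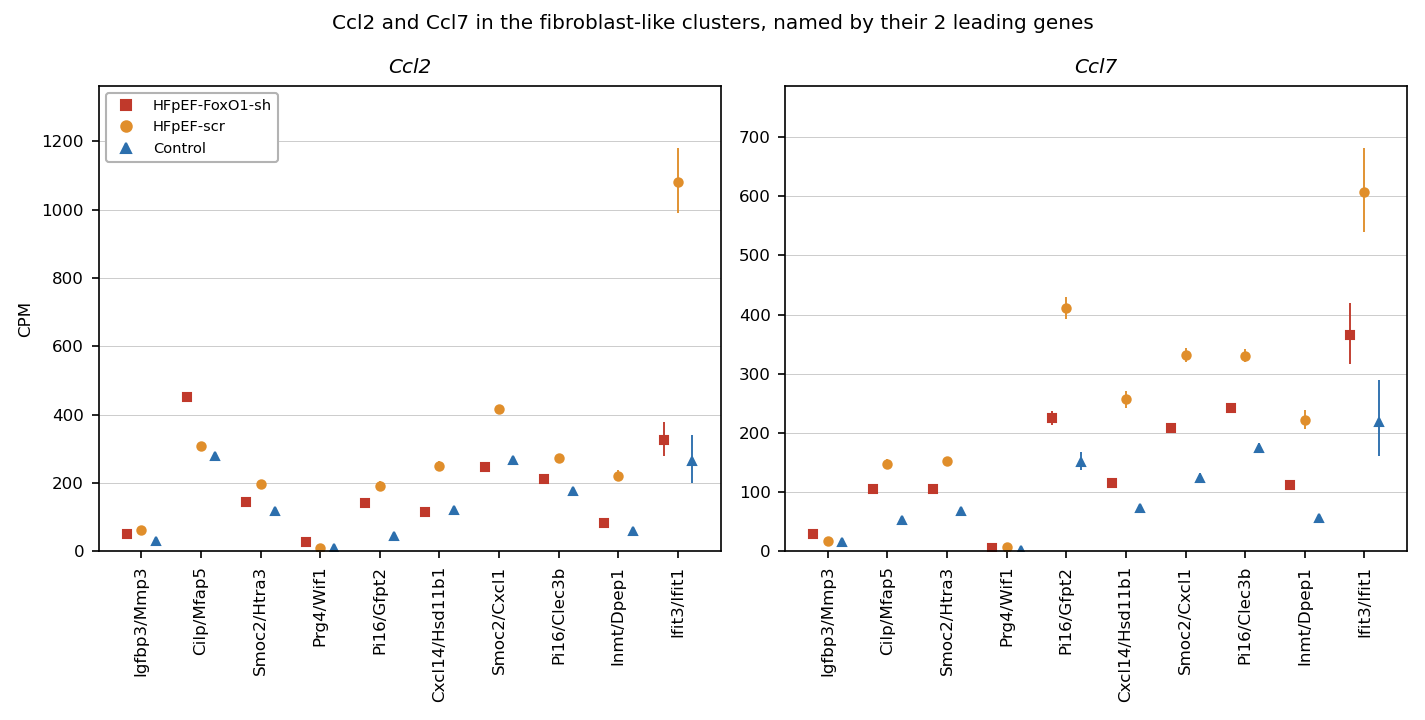
Summed CPM of Ccl2 (left) and Ccl7 (right) in each fibroblast cluster, named by its 2 leading genes, for HFpEF-FoxO1-sh (squares), HFpEF-scr (circles) and Control (triangles), with exact Poisson 95% counting intervals as bars. The HFpEF-scr point is the highest of the 3 for Ccl7 in 9 of 10 clusters, while for Ccl2 the HFpEF-FoxO1-sh point is the highest in Cilp/Mfap5, where it rests on cells at or under 5% mitochondrial UMIs, and in Prg4/Wif1.

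Mitochondrial share differed between the libraries, so the fibroblasts were also read in bins of it. In cells at 5 to 10%, Ccl2 was at 164 CPM in HFpEF-FoxO1-sh, 322 in HFpEF-scr and 191 in Control, and Ccl7 at 149.96, 286 and 117. At 10 to 15%, Ccl2 was at 132, 212 and 126 CPM and Ccl7 at 105, 201 and 74.5. At 15 to 20%, Ccl2 was at 104, 188 and 79.0 CPM and Ccl7 at 105, 159 and 43.9. In these 3 bins HFpEF-scr was the highest library for both genes.

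Within those bins the ratio of HFpEF-scr to Control was 1.69, 1.68 and 2.38 for Ccl2, 2.45, 2.69 and 3.62 for Ccl7, and 2.14, 1.80 and 1.78 for Ccl8. The ratio of HFpEF-FoxO1-sh to HFpEF-scr was 0.508, 0.623 and 0.553 for Ccl2, 0.524, 0.522 and 0.659 for Ccl7, and 0.496, 0.503 and 0.440 for Ccl8. All 9 of the second set are past 1.5-fold, where the summed class gave 0.768 for Ccl2 and 0.681 for Ccl7.

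The lowest bin, at 0 to 5%, was different. It held 310 fibroblasts in HFpEF-FoxO1-sh, 25 in HFpEF-scr and 20 in Control, with Ccl2 at 796, 114 and 138 CPM and Ccl7 at 363, 106 and 153 CPM. Of its 2737 Ccl2 UMIs in HFpEF-FoxO1-sh, 1609 came from 73 cells of the Cilp/Mfap5 cluster, of which 19 had a Ccl2 UMI. Without cells at or under 5%, a step added after the data were seen, fibroblast Ccl2 was at 154 CPM in HFpEF-FoxO1-sh and 239.8 in HFpEF-scr, a ratio of 0.644 (0.628 to 0.660) past the rule. Ccl7 was then at 138 and 218 CPM, with a ratio of 0.633 (0.617 to 0.650), also past it. The immediate early genes, which tissue dissociation is known to induce, summed to 11586 CPM in HFpEF-FoxO1-sh fibroblasts, 9291 in HFpEF-scr and 9308 in Control, and their part in these values was not tested.

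**Figure D4:**
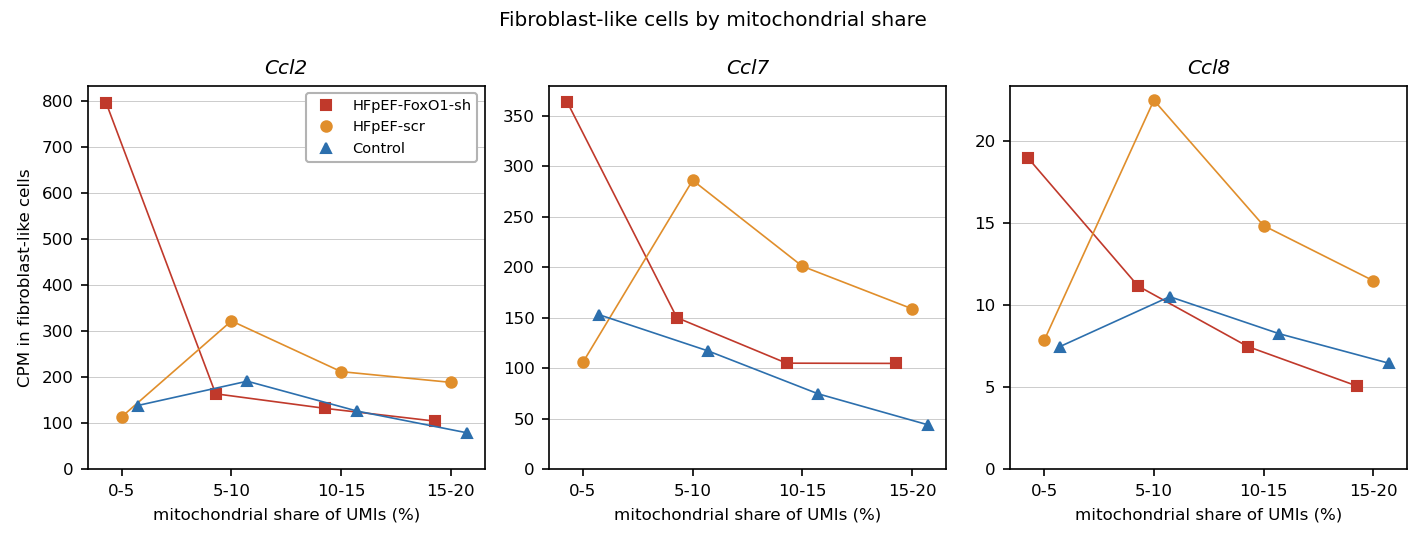
CPM of Ccl2, Ccl7 and Ccl8 in fibroblasts against the cell's mitochondrial share of UMIs, in bins of 5 percentage points, for HFpEF-FoxO1-sh (squares), HFpEF-scr (circles) and Control (triangles), joined by lines only to guide the eye. HFpEF-scr lies highest for all 3 genes from 5 to 20%, and HFpEF-FoxO1-sh lies highest in the lowest bin, where HFpEF-scr and Control have 25 and 20 cells.

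In macrophages 3 of the 9 genes passed the rule between HFpEF-FoxO1-sh and HFpEF-scr: Ccl8 and Ccl12, the pair whose promoter windows are printed first, were lower, and Ccl6 was higher. Ccl8 was at 176 CPM in HFpEF-FoxO1-sh (169 to 184), 359 in HFpEF-scr (347 to 372) and 259.8 in Control (248 to 271). Ccl12 was at 311 CPM (302 to 321), 490.4 (476 to 505) and 376 (363 to 390.3). In these sums HFpEF-FoxO1-sh was the lowest and HFpEF-scr the highest library for both genes, and the intervals did not overlap.

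The ratio of HFpEF-FoxO1-sh to HFpEF-scr was 0.490 (0.465 to 0.517) for Ccl8 and 0.635 (0.609 to 0.663) for Ccl12, both past the rule, as 1.40% of measured genes were in that direction. HFpEF-scr over Control gave 1.38 and 1.30, within it. In mitochondrial bins from 5 to 20% the ratio of HFpEF-FoxO1-sh to HFpEF-scr was 0.343, 0.328 and 0.604 for Ccl8 and 0.674, 0.518 and 0.597 for Ccl12, lower in every bin. At 5 to 10%, however, Control and not HFpEF-FoxO1-sh was the lowest library for Ccl12. The levels there were 349 CPM in HFpEF-FoxO1-sh, 517 in HFpEF-scr and 261 in Control.

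Ccl8 in macrophages was again the product of few cells. Those with at least 10 Ccl8 UMIs were 3.55% of HFpEF-FoxO1-sh, 5.42% of HFpEF-scr and 4.08% of Control macrophages, and held 70.0%, 84.7% and 81.8% of the gene's UMIs. They carried transcripts of a C-type lectin family: Cd209f, first by its lowest fold of 17.7, was at 573 CPM in such HFpEF-FoxO1-sh cells, 402 in HFpEF-scr and 1139 in Control, against 31.4, 21.03 and 49.9 CPM in macrophages with no Ccl8. Its relatives Cd209d, Cd209g and Cd209b followed, with lowest folds of 13.8, 13.6 and 12.4. The metalloproteinase Mmp9, the endothelin receptor Ednrb, the elastase-family gene Cela1, the lectin Clec10a and the complement gene C4b were also at least 3.70-fold higher in every library. Median depth was 9968.5, 8362 and 9782.5 UMIs in the cells with at least 10, against 5934, 5612 and 6323 in those with none. Of the macrophages' Ccl8 UMIs, 94.8%, 85.3% and 88.8% lay in the cluster led by Folr2 and F13a1, described below. The part of depth and of the clusters in these folds was not tested. These genes were picked by their fold and describe these cells only.

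Cells with at least 10 Ccl12 UMIs were 5.13% of HFpEF-FoxO1-sh, 8.12% of HFpEF-scr and 7.61% of Control macrophages. No gene beside the members is listed for them, since none was sought. Ccl12 was seen in 46.2% of Ccl8-positive HFpEF-FoxO1-sh macrophages, 55.5% in HFpEF-scr and 54.2% in Control, and in 28.3%, 32.1% and 30.5% of Ccl8-negative ones. The Ccl8-positive cells were deeper, at medians of 8172, 7201.5 and 8676 UMIs against 5934, 5612 and 6323, and the part of depth was not tested.

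The macrophages formed 2 clusters that divided the members between them. One was led by Folr2 and F13a1 and held 915 cells in HFpEF-FoxO1-sh, 629 in HFpEF-scr and 556 in Control, and the other was led by the MHC class II genes H2-Eb1 and H2-Ab1 and held 1055, 848 and 522. Ccr2 was at 36.3 CPM in the Folr2/F13a1 cluster of HFpEF-FoxO1-sh, 65.1 in HFpEF-scr and 34.7 in Control, and at 429, 482 and 365 CPM in the H2-Eb1/H2-Ab1 cluster. Ccl8 ran the other way, at 309, 646 and 406 CPM in Folr2/F13a1 and at 19.8, 100.2 and 67.2 CPM in H2-Eb1/H2-Ab1. Ccl6 and Ccl9 were also higher in Folr2/F13a1, with Ccl6 at 1811, 1271 and 1536 CPM there and 485, 372 and 417 CPM in H2-Eb1/H2-Ab1. Ccl3 and Ccl4 were higher in H2-Eb1/H2-Ab1, with Ccl4 at 1236, 966 and 1015 CPM there and 245, 323 and 209 CPM in Folr2/F13a1. Ccl12 and Ccl2 differed least between the clusters.

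The lower Ccl8 and Ccl12 of HFpEF-FoxO1-sh was present in both clusters. The ratio of HFpEF-FoxO1-sh to HFpEF-scr was 0.478 for Ccl8 in Folr2/F13a1 and 0.198 in H2-Eb1/H2-Ab1, and 0.616 and 0.663 for Ccl12. Folr2/F13a1 held 46.4% of HFpEF-FoxO1-sh macrophages, 42.6% of HFpEF-scr and 51.6% of Control.

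**Figure D5:**
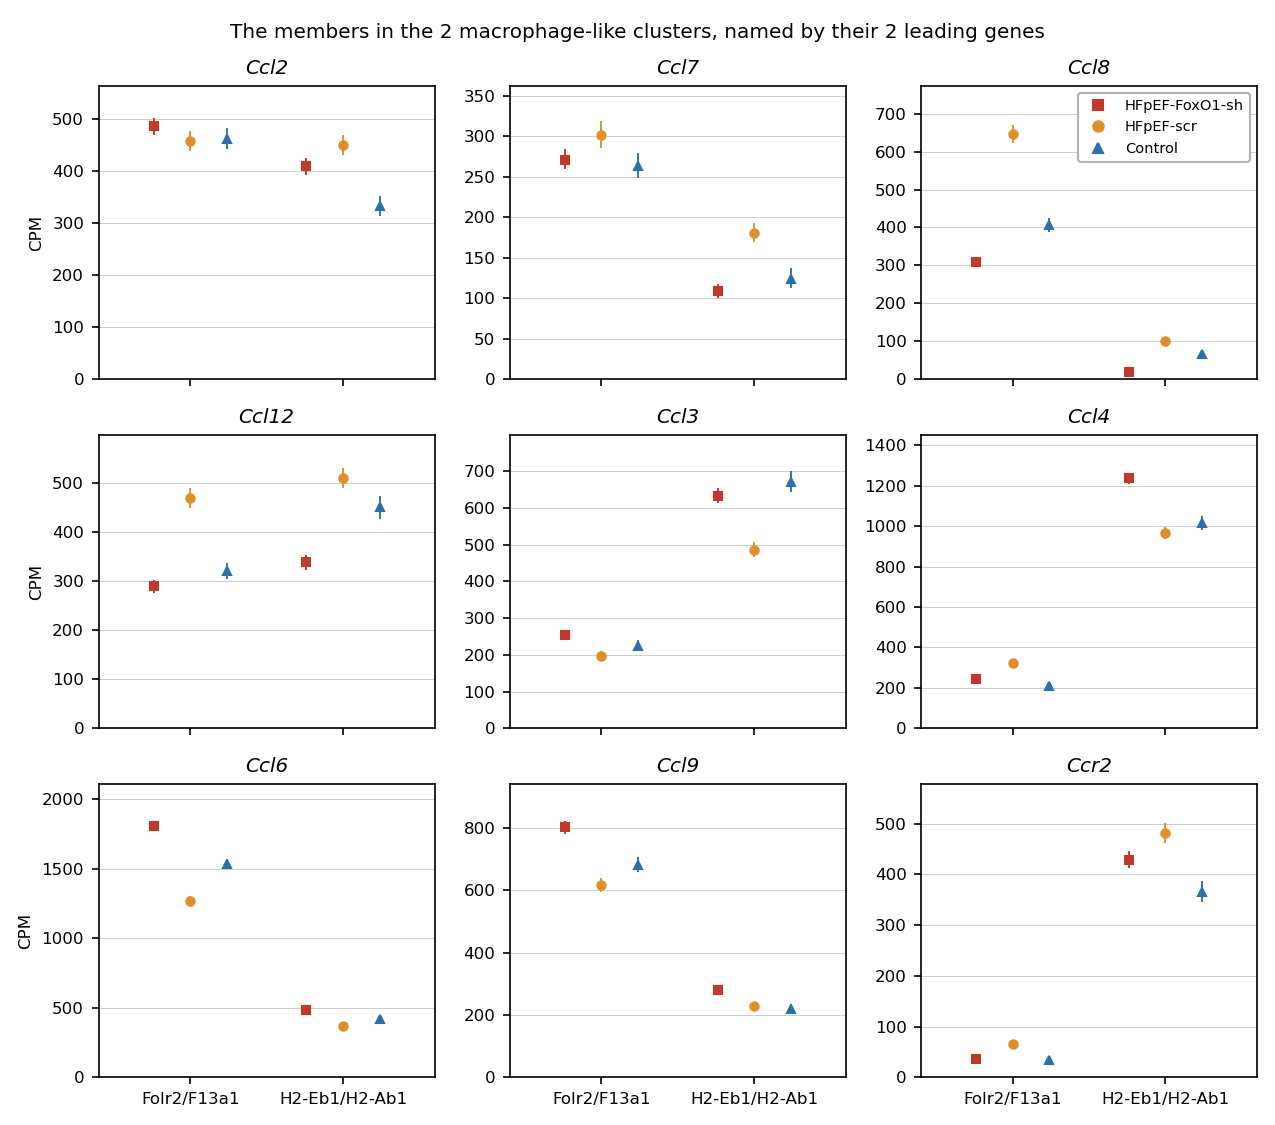
Summed CPM of the 9 genes in the macrophage clusters led by Folr2 and F13a1 and by H2-Eb1 and H2-Ab1, for HFpEF-FoxO1-sh (squares), HFpEF-scr (circles) and Control (triangles), with exact Poisson 95% counting intervals as bars. Ccl8, Ccl6, Ccl9 and Ccl7 are higher in Folr2/F13a1 and Ccr2, Ccl3 and Ccl4 in H2-Eb1/H2-Ab1 in each library.

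Ccr2 was the only member past the rule between HFpEF-scr and Control macrophages, at 284 CPM and 177 CPM with HFpEF-FoxO1-sh at 216, where 1.63% of measured genes were higher and 2.07% lower. The ratio of HFpEF-scr to Control was 1.60 (1.499 to 1.71), and that of HFpEF-FoxO1-sh to HFpEF-scr was 0.762 (0.722 to 0.804), within the rule. On the log2 scale the HFpEF-scr to Control ratio of Ccr2 was 0.68, and it dropped under the rule with at least 1000 UMIs per barcode (0.57), with each cell classed singly (0.49) and with one set of cluster weights (0.45). A Ccr2 UMI was seen in 21.9% of HFpEF-FoxO1-sh, 27.1% of HFpEF-scr and 16.5% of Control macrophages, and in 13.6%, 16.8% and 10.0% after thinning to 1000 UMIs. No B cell had one.

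Within the clusters the ratio of HFpEF-scr to Control for Ccr2 was 1.88 in Folr2/F13a1 and 1.32 in H2-Eb1/H2-Ab1. In mitochondrial bins from 5 to 20% it was 1.92, 1.77 and 1.47. Ccl2 was not more frequent in macrophages with its receptor: it was seen in 32.2% of Ccr2-positive HFpEF-FoxO1-sh macrophages, 30.7% in HFpEF-scr and 29.2% in Control, and in 37.7%, 36.5% and 40.2% of Ccr2-negative ones. In the same order, 90.9%, 89.1% and 88.9% of macrophage Ccr2 UMIs lay in H2-Eb1/H2-Ab1. Ccl2 was seen in 30.7%, 32.2% and 32.0% of that cluster's cells and in 43.2%, 38.6% and 44.4% of Folr2/F13a1 cells. The part of the clusters in this contrast was not tested. Monocytes went the other way, with Ccl2 in 22.2%, 25.5% and 38.9% of Ccr2-positive cells and 3.33%, 8.82% and 8.89% of Ccr2-negative ones. But the Ccr2-positive monocytes were deeper, at medians of 7293, 7281.5 and 7312.5 UMIs against 3661.5, 5313.5 and 4709. Deeper cells show both genes more often, and the part of depth in the monocyte contrast was not tested.

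Summed over all macrophages, the main Ccr2 ligand itself was nearly level. Ccl2 was at 452 CPM in HFpEF-FoxO1-sh (440.1 to 463), 454 in HFpEF-scr (441 to 468) and 407 in Control (392.4 to 421), so that the ratio was 0.994 (0.955 to 1.03) between the HFpEF libraries and 1.12 (1.07 to 1.17) between HFpEF-scr and Control. Ccl7 was at 197, 238 and 203 CPM, with ratios of 0.825 and 1.17. Within mitochondrial bins the Ccl2 ratio of HFpEF-scr to Control was 1.48, 1.21 and 0.752, so it lay on both sides of 1. The Ccl2 ratio of HFpEF-FoxO1-sh to HFpEF-scr was 0.690, 0.821 and 1.34 in the same bins, also on both sides of 1. For Ccl7 the ratio of HFpEF-scr to Control was 1.82, 1.14 and 0.684 in these bins, again on both sides of 1. Its ratio of HFpEF-FoxO1-sh to HFpEF-scr was 0.509, 0.579 and 0.708, lower in each bin than over the summed class. By cluster it was 0.899 in Folr2/F13a1 and 0.599 in H2-Eb1/H2-Ab1. The fibroblast markers summed to 1151 CPM in HFpEF-FoxO1-sh macrophages, 1233 in HFpEF-scr and 1368 in Control, with none of the 12 at 0.

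Ccl6 was higher in HFpEF-FoxO1-sh than in HFpEF-scr macrophages by a ratio of 1.51 (1.46 to 1.55), at the edge of the rule, which 1.77% of measured genes passed in that direction. Within mitochondrial bins its ratio was 1.27, 1.07 and 1.11, under 1.5 in each, and without cells at or under 5% it was 1.48 (1.44 to 1.52). Within each library Ccl6 was lower in the bins of higher mitochondrial share: in HFpEF-FoxO1-sh it was at 1428, 912 and 631 CPM from 5 to 20%, in HFpEF-scr at 1122, 849 and 569, and in Control at 1356, 1223 and 759. Ccl9 had a ratio of 1.36, within the rule. The pair was often seen together: Ccl9 was in 79.5% of Ccl6-positive HFpEF-FoxO1-sh macrophages, 72.6% in HFpEF-scr and 77.3% in Control, and in 40.9%, 42.9% and 38.6% of Ccl6-negative ones. The Ccl6-positive cells were deeper, at medians of 6469.5, 6068.5 and 6834.5 UMIs against 4394.5, 4896 and 5468. Both genes were also higher in Folr2/F13a1, and the part of depth and cluster was not tested.

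As sums over all macrophages, Ccl3 and Ccl4 did not pass the rule in either comparison. Their ratios of HFpEF-FoxO1-sh to HFpEF-scr were 1.23 and 1.06, and those of HFpEF-scr to Control were 0.835 and 1.19. For Ccl4 the clusters differed in direction. Its ratio of HFpEF-scr to Control was 1.54 (1.42 to 1.68) in Folr2/F13a1 and 0.952 in H2-Eb1/H2-Ab1. That of HFpEF-FoxO1-sh to HFpEF-scr was 0.759 and 1.28. In mitochondrial bins from 5 to 20% the first ratio of Ccl4 was 2.55, 1.14 and 1.09 and the second 0.853, 1.45 and 1.37. For Ccl3 the first was 1.05, 0.780 and 0.896 and the second 1.26, 1.78 and 1.31. Macrophages with at least 10 Ccl4 UMIs were 11.1% in HFpEF-FoxO1-sh, 10.5% in HFpEF-scr and 10.8% in Control, and held 88.8%, 86.1% and 83.3% of its UMIs. Ccl4 was seen in 57.8% of Ccl3-positive macrophages of HFpEF-FoxO1-sh, 57.0% in HFpEF-scr and 58.5% in Control, against 17.8%, 20.7% and 19.5% of Ccl3-negative ones.

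In monocytes Ccr2 was level, at 628 CPM in HFpEF-FoxO1-sh (571 to 689), 647 in HFpEF-scr (616 to 679.6) and 709.6 in Control (654 to 769), with ratios of 0.970 (0.871 to 1.08) and 0.912 (0.829 to 1.00). Ccl4 stood out, at 541, 263 and 482 CPM: its ratio of HFpEF-scr to Control was 0.546 (0.481 to 0.620), and it was higher in HFpEF-FoxO1-sh than in HFpEF-scr, with a ratio of 2.06 (1.81 to 2.34). A Ccl4 UMI was seen in 26 of 102 HFpEF-FoxO1-sh, 88 of 322 HFpEF-scr and 32 of 117 Control monocytes. These shares were similar, so the summed levels differ in UMIs per positive cell and rest on few cells. The rule was passed by 3.77% of genes as higher and 2.44% as lower in HFpEF-scr over Control monocytes, and by 2.51% and 6.77% in HFpEF-FoxO1-sh over HFpEF-scr. Ccl8 had 20 UMIs in HFpEF-scr monocytes and 0 in both other libraries.

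The monocyte sums rest on 102, 322 and 117 cells and carried other transcripts unevenly. The fibroblast markers summed to 1097 CPM in HFpEF-FoxO1-sh monocytes, 3761 in HFpEF-scr and 4268 in Control, and the erythroid markers to 194, 4120 and 12944 CPM, and their part in the monocyte values was not tested.

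In the cluster named dendritic, which also carried macrophage markers, 5 of 8 measured members were higher in HFpEF-scr than in Control. Of all genes measured there, 2.72% were higher and 3.75% lower. Ccl4 was at 579 CPM in HFpEF-FoxO1-sh, 719.8 in HFpEF-scr and 379 in Control, with a ratio of 1.90 (1.73 to 2.09) for HFpEF-scr over Control. Ccl3 was at 339.6, 446 and 297 CPM with a ratio of 1.503, Ccl2 at 172, 147 and 96.3 with 1.53, and Ccl7 at 31.3, 24.96 and 14.0 with 1.78. Ccl12 had 8 UMIs in HFpEF-FoxO1-sh, 53 in HFpEF-scr and 2 in Control, with a ratio of 21.3 (5.61 to 180.2) for HFpEF-scr over Control, and the 53 lay in 1.44% of 208 cells. The Ccl3 and Ccl7 differences changed sign under other settings, given in the closing section. Between HFpEF-FoxO1-sh and HFpEF-scr dendritic cells only Ccl12 passed the rule, as lower, as did 3.08% of genes, with 3.79% higher.

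In endothelial cells Ccl2 was at 165 CPM in HFpEF-FoxO1-sh, 149 in HFpEF-scr and 29.8 in Control, but 1% of the cells held 90.04%, 87.4% and 62.0% of those UMIs. Cells with a Ccl2 UMI were 8.30%, 7.30% and 7.17%, a far smaller span than that of the summed level. Among NK cells Ccl2 had 254 UMIs in HFpEF-scr, all in 0.922% of the cells, with 17 in HFpEF-FoxO1-sh and 0 in Control. These sums therefore describe single cells and are given as levels only.

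Other genes of the pathway were counted from lists of related genes. In fibroblasts of HFpEF-scr against Control, 4 of 15 genes for monocyte recruitment and adhesion were higher and none lower, where 1.69% of all measured genes were higher and 1.85% lower. Of the 4, Icam1, the ligand of leukocyte integrins, was at 53.1 CPM in HFpEF-scr and 35.2 in Control and Il34, a ligand of the macrophage receptor Csf1r, at 5.41 and 3.02. C5ar1, the complement C5a receptor, and Csf2 passed the rule at 0.5003 CPM or less. Of 27 NF-kB pathway genes 2 were higher and none lower: Cxcl5 at 15.7 and 5.81 CPM and Cxcl2, a neutrophil chemokine, at 6.15 and 2.502. None of 17 genes of Ccr2 signalling and migration, 17 glycosaminoglycan carriers, 21 immediate early genes or 7 other CC receptors passed in either direction.

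Of 9 other CC chemokines in these fibroblasts, Ccl21a was higher in HFpEF-scr than in Control, at 7.04 and 2.94 CPM, and 3 were lower, among them Ccl5, a T cell product, at 2.55 and 8.05 CPM. Ccl24 and Ccl1, the others, were at 0.655 CPM or less. Ccl11, the eosinophil chemokine encoded between Ccl7 and Ccl12, did not share their pattern: it was at 138 CPM in HFpEF-FoxO1-sh fibroblasts, 92.5 in HFpEF-scr and 92.1 in Control.

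Between HFpEF-FoxO1-sh and HFpEF-scr fibroblasts, 4 of 21 immediate early genes were higher and none lower, where 1.67% of all measured genes were higher and 1.84% lower, with a list median log2 ratio of 0.34 against 0.03 over all genes. Atf3 was at 72.2 CPM in HFpEF-FoxO1-sh and 43.3 in HFpEF-scr, Fosb at 284 and 180.4, Btg2 at 359 and 235, and Egr2 at 21.4 and 13.9, all products of stress or growth signals. Of 27 NF-kB genes Il6 was higher, at 12.4 CPM in HFpEF-FoxO1-sh and 7.54 in HFpEF-scr, while Cxcl5, at 9.14 and 15.7, and Il1b, at 0.292 and 0.549, were lower. Of 8 other CC chemokines Ccl21a and Ccl5 were lower and Ccl24 higher, of 17 migration genes Itgal and Coro1a were lower at under 2 CPM, of 15 recruitment genes Csf2 and C5ar1 were lower, and no carrier or receptor gene passed.

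In macrophages few list genes passed the rule. For HFpEF-scr over Control, where 1.63% of all measured genes were higher and 2.07% lower, 2 of 6 other CC chemokines were higher, Ccl5 (22.6 and 6.17 CPM) and Ccl11 (3.503 and 1.71), and 1 was lower, Ccl24, at 324 and 572. Of 26 NF-kB genes Il1b (113 and 174 CPM) and Ptgs2 (13.6 and 27.2) were lower, of 20 immediate early genes Egr2 was lower, of 10 recruitment genes C3 was higher and Jam3 lower, and of 15 carriers Ndst1 was lower. None of 19 migration genes or 3 receptors passed. For HFpEF-FoxO1-sh over HFpEF-scr, where 1.77% were higher and 1.40% lower, Il1b was higher, at 236 and 113 CPM, as the sole call among 26 NF-kB genes, Ccl5 was lower, at 3.34 and 22.6, and Ccl21a higher, and Jam3 was higher and Jam2 lower at under 3 CPM. The immediate early genes summed to 21978.5 CPM in HFpEF-FoxO1-sh macrophages, 18139 in HFpEF-scr and 17459 in Control, and the erythroid markers to 271, 944 and 291 CPM, and their part in the macrophage values was not tested. Ccr1, the receptor of Ccl6 and Ccl9, was at 54.6 CPM in HFpEF-FoxO1-sh macrophages, 48.2 in HFpEF-scr and 48.7 in Control.

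Across 45 profiles, 15 classes in each of 3 libraries, the genes most like each member by Pearson r of log2(CPM + 1) were myeloid genes for most. For Ccr2 they were Lilrb4a (r of 0.96), Lilr4b (0.94) and Tns4 (0.94). For Ccl6 they were Clec4a2 (0.97), Csf1r (0.97) and Ptpro (0.96), and for Ccl9 they were Ptpro (0.97), Clec4a2 (0.97) and Clec4a3 (0.97). For Ccl12 they were Abcc3 (0.93), Clec5a (0.92) and Gm38843 (0.92).

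For Ccl3 the nearest were Lilrb4a, Itgam and Sh2d1b1 (each 0.94), and for Ccl4 they were Gna15 (0.93), Tyrobp (0.92) and Slamf7 (0.92). Ccl2 and Ccl7 shared Gda (0.87 and 0.83) and Dram1 (0.81 and 0.81), followed by Gusb (0.80) for Ccl2 and Abca9 (0.80) for Ccl7. Ccl8 had the weakest likeness, to Reps2 (0.79), Clcn5 (0.75) and Gm20619 (0.73). The profiles share libraries and depth, and the values describe only the order of classes. The classes include those named platelet and erythroid, which carried the fibroblast markers too, so fibroblast transcripts also enter through them.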

How the data were processed

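The files hold UMI counts per gene and barcode as deposited, 1 matrix for each library. Per the submitters' processing notes, Cell Ranger 6.1.2 and the mm10 build were used, and the annotation release is not given in the sources used here. The 9 genes and the 7 lists of related genes were chosen with earlier results of these data known.

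Barcodes needed at least 500 UMIs, 300 genes and a mitochondrial share of 20% or less, and Scrublet in scanpy 1.11.5 marked 537 HFpEF-FoxO1-sh, 342 HFpEF-scr and 182 Control barcodes as doublets (3.09%, 2.29% and 1.41%), which were removed. Cells were clustered (2000 variable genes without the 9 genes, 30 components, 15 neighbours, Leiden resolution 1.0 with leidenalg 0.10.2) into 34 clusters. A cluster was named from markers of 22 classes when at least 3 were among its 50 leading genes. A second comparison over 100 genes without the fibroblasts, and a rule that ignored a foreign marker rarer in its own class, were added after the clusters were seen. A different naming could shift the classes, and 48 HFpEF-FoxO1-sh, 62 HFpEF-scr and 32 Control cells stayed unnamed.

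For each class in each library the deposited counts were added up and scaled to CPM, with exact Poisson intervals. Shares have exact Clopper-Pearson intervals, and ratios have exact conditional binomial intervals. Only the 15 classes with at least 50 cells in every library were compared. Median depth of kept cells was 6607 UMIs in HFpEF-FoxO1-sh, 6520 in HFpEF-scr and 6889 in Control. The genes named beside the members are those of the lists past the ratio rule, the 3 nearest in profile with at least 200 UMIs (log2 with a pseudocount of 1 CPM), and the leading genes of cells with at least 10 UMIs of Ccl2 or Ccl8. The scripts were tested on simulated data. The scripts ran in Python 3.11.15 with scipy 1.17.1, pandas 2.3.3, numpy 2.4.6 and, for the figures, matplotlib 3.10.9.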

Additional observations from a re-analysis of the deposited data

How the results depend on the processing

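No paired analysis was possible because each group has 1 library, so no result has a replicate check or a test. The main fibroblast and macrophage ratios kept their direction under every alternative run. The log2 ratio of HFpEF-scr to Control in fibroblasts was 0.84 for Ccl2, against 0.77 with a mitochondrial limit of 10%, 0.77 with each cell classed singly, 0.94 thinned to 1000 UMIs, 0.94 as a mean of per-cell CPM and 0.77 with one set of cluster weights. For Ccl7 it was 1.45, against 1.25 with the 10% limit, 1.52 thinned, 1.57 as a per-cell mean and 1.34 with cluster weights. The count of members past the rule there was 5, against 3 with the 10% limit, 3 classed singly and 3 thinned.

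The log2 ratio of HFpEF-FoxO1-sh to HFpEF-scr in fibroblasts was -0.38 for Ccl2, against -0.67 with the 10% limit, -0.34 with a limit of 50%, -0.54 classed singly, -0.54 thinned, -0.57 as a per-cell mean, -0.45 with cluster weights and -0.43 with median-of-ratios size factors. For Ccl7 it was -0.55, against -0.78 with the 10% limit, -0.63 as a per-cell mean, -0.66 with cluster weights and -0.60 with median-of-ratios factors. Leaving out cells at or under 5% mitochondrial UMIs, chosen after seeing the data, gave -0.64 for Ccl2 and -0.66 for Ccl7. The count past the rule was 3, against 5 without those cells, 5 with cluster weights and 5 with median-of-ratios factors. The cause of these shifts was not tested.

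In macrophages the log2 ratio of HFpEF-scr to Control for Ccr2 was 0.68, against 0.91 with the 10% limit, 0.57 with at least 1000 UMIs per barcode, 0.49 classed singly and 0.45 with cluster weights. The count past the rule was 1, against 3 with the 10% limit, 0 with 1000 UMIs and 0 classed singly. For HFpEF-FoxO1-sh to HFpEF-scr Ccr2 was at -0.39, against -0.51 with the 10% limit and -0.23 with cluster weights. In dendritic cells the ratio of HFpEF-scr to Control reversed for Ccl7, to -0.16 classed singly, and for Ccl3, to -0.53 with the 10% limit, -0.19 with the 50% limit and -0.041 at Leiden resolution 2.0. Of the values not named here, 213 moved by more than their counting interval without reversing. In 11 further classes, where sums are smaller, 135 of 666 values moved and 17 reversed. Depth limits the fibroblast values of Ccr2, Ccl3 and Ccl9, which rest on 9 to 54 UMIs.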
